A study of Rattus norvegicus with 36 samples.

Results

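Maternal separation was compared with the standard environment in the striatum of wildtype rats. The comparison holds 12 of the 36 libraries of the series, 6 from wildtype rats after maternal separation (WT_MS, written ELS in the sample labels) and 6 from wildtype rats of the standard environment (WT_SE). The members were taken from the genotype and environment in the labels, and no measured value was used to choose them. All animals were male Sprague Dawley rats aged 2 months. Pups of the maternal separation group were taken from the dam daily during the first weeks after birth, and after weaning they were housed in standard cages as the WT_SE animals were. The other libraries came from wildtype rats in an enriched environment (WT_EE) and from transgenic BACHD littermates in the same 3 environments (TG_SE, TG_EE and TG_MS), which carry full-length human huntingtin with an expanded repeat, inserted as a bacterial artificial chromosome that holds its own regulatory sequences. Whole litters were allocated to an environment, and the labels do not give the litter, so WT_MS and WT_SE differ also in litter, and the p-values cannot separate litter from environment.

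The striatum is the input nucleus of the basal ganglia. Most of its neurons are inhibitory medium spiny neurons, which receive cortical and thalamic glutamatergic input and dopaminergic input from the midbrain, and which are the cells most affected in Huntington disease. Separation of rat pups from the dam is a widely used model of early life stress, studied for its effects on the hypothalamic-pituitary-adrenal axis, on glucocorticoid signalling and on dopaminergic function in adult animals. The question of the comparison was whether this stress, applied before weaning, left a difference in striatal mRNA levels in young adult rats without the transgene.

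RNA was measured by sequencing of polyadenylated RNA and is given as counts per Ensembl gene. Total counts were 11349848 to 13136133 in WT_MS (median 12274947.5) and 10684845 to 19284439 in WT_SE (median 12890153), and 19168 to 19628 and 19394 to 20300 genes, respectively, had at least 1 count. Libraries are numbered here 1 to 6 within a group, after the 6 runs of consecutive library numbers, each of which holds 1 animal of every group. The labels do not say what the library numbers stand for. No pair of replicates within WT_SE or WT_MS agreed within sampling noise, so all 12 were counted as separate samples. 5 of the 36 libraries stood apart from the rest before any comparison. On the first principal component, which held 22% of the variance, WT_SE 6 scored 40.2, TG_EE 6 28.2, WT_EE 6 25.2, WT_SE 2 23.9 and WT_SE 5 21.4, WT_SE 4 followed with 7.69, and each of the remaining 30 had a score of at most 2.93. 3 of the 5 are in WT_SE and none is in WT_MS, so the calls, the named genes and the counts that rest on them are also given without them. The genes are known here only by Ensembl identifier, because no table at hand pairs these identifiers with symbols. Marker genes of striatal neurons, of glia or of neighbouring brain regions, glucocorticoid targets and the other gene lists could therefore not be measured, and the labelled tissue was not checked against its markers.

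Far more genes were called lower than higher after maternal separation, and most of the lower genes were high in a few of the standard animals. Of 12657 genes tested, 50 (0.395%) were called by the quasi-likelihood test of edgeR with the run as block, where a call required an adjusted p (Benjamini-Hochberg) no higher than 0.1 and a log2 fold change of 0.3 or more in either direction. 49 genes (0.387%) were lower in WT_MS and 1 gene (0.0079%) was higher. The smallest adjusted p of the test in edgeR was 0.0239, and 17 of the 50 genes had an adjusted p of at most 0.05. The call was lost under several fits. The study used surrogate variables, without a number in its methods, and reported no differentially expressed gene for this comparison. Its fit was not repeated here, since surrogate variables were used only in edgeR. With 5 surrogate variables, the number estimated here, in place of the run, edgeR called no gene, with 777 genes at an unadjusted p under 0.05. With no run term at all edgeR called none either, with 1024 such genes. DESeq2 called 102 genes with the run (101 lower) and 60 without it (59 lower), and limma-voom with the run called none, with 1341 genes at an unadjusted p under 0.05. The number of genes called in WT_MS/WT_SE therefore ranged from none to more than in the reported fit according to the treatment of the variation between animals.

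Most genes had a small fitted difference. The fitted change was under 0.3 on the log2 scale in 12109 genes (95.7%), and the median over all genes was -0.000374, which the scaling holds near 0. The standard error had a median of 0.0814 on the log2 scale. For 8513 genes (67.3%) the 95% interval of the difference lay wholly within 0.3 of 0 in either direction, so larger changes lay outside the interval for those genes. A fitted change of at least 0.3 was seen upward in 111 genes and downward in 437. At an unadjusted p under 0.05 there were 1415 genes (11.2%), where 5% of the genes tested would be 633. Of these, 847 were lower and 568 higher in WT_MS. The number at such a p depended on the fit. In edgeR it was 777 with 5 surrogate variables in place of the run, and 492 with 2 of them, which is below 633. When only library totals were used for scaling, the same count was 1526, with 1352 lower and 174 higher, so this split depended on the scaling, with a shift of the median of all genes to -0.034.

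The 49 genes called lower covered a wide range of sizes. 16 genes fell by 2 or more on the log2 scale (median -4.53, range -7.10 to -2.25), 10 genes fell by 1 to 2 (median -1.39) and 23 genes fell by 0.3 to 1 (median -0.59). These limits were set after the values were seen and serve for description only. Of the 16 genes with the largest fall, 15 reached a mean raw count of 50 only through the 5 libraries that stood apart, as did 1 of the 10 and 0 of the 23, so for such genes the filter itself selected high values in those libraries. Over all genes tested 55 did so. When the genes were ordered by mean normalized count and split into 4 equal parts, the lowest part held 22 called genes and the second 21, whereas the third held 3 and the highest 4. A pair of the called genes had identical counts in 22 of the 36 libraries, differed by at most 5 counts in any library and had the same fitted change of -1.39, so these genes may share reads, and they are counted as 2 in the numbers given here.

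**Figure D1:**
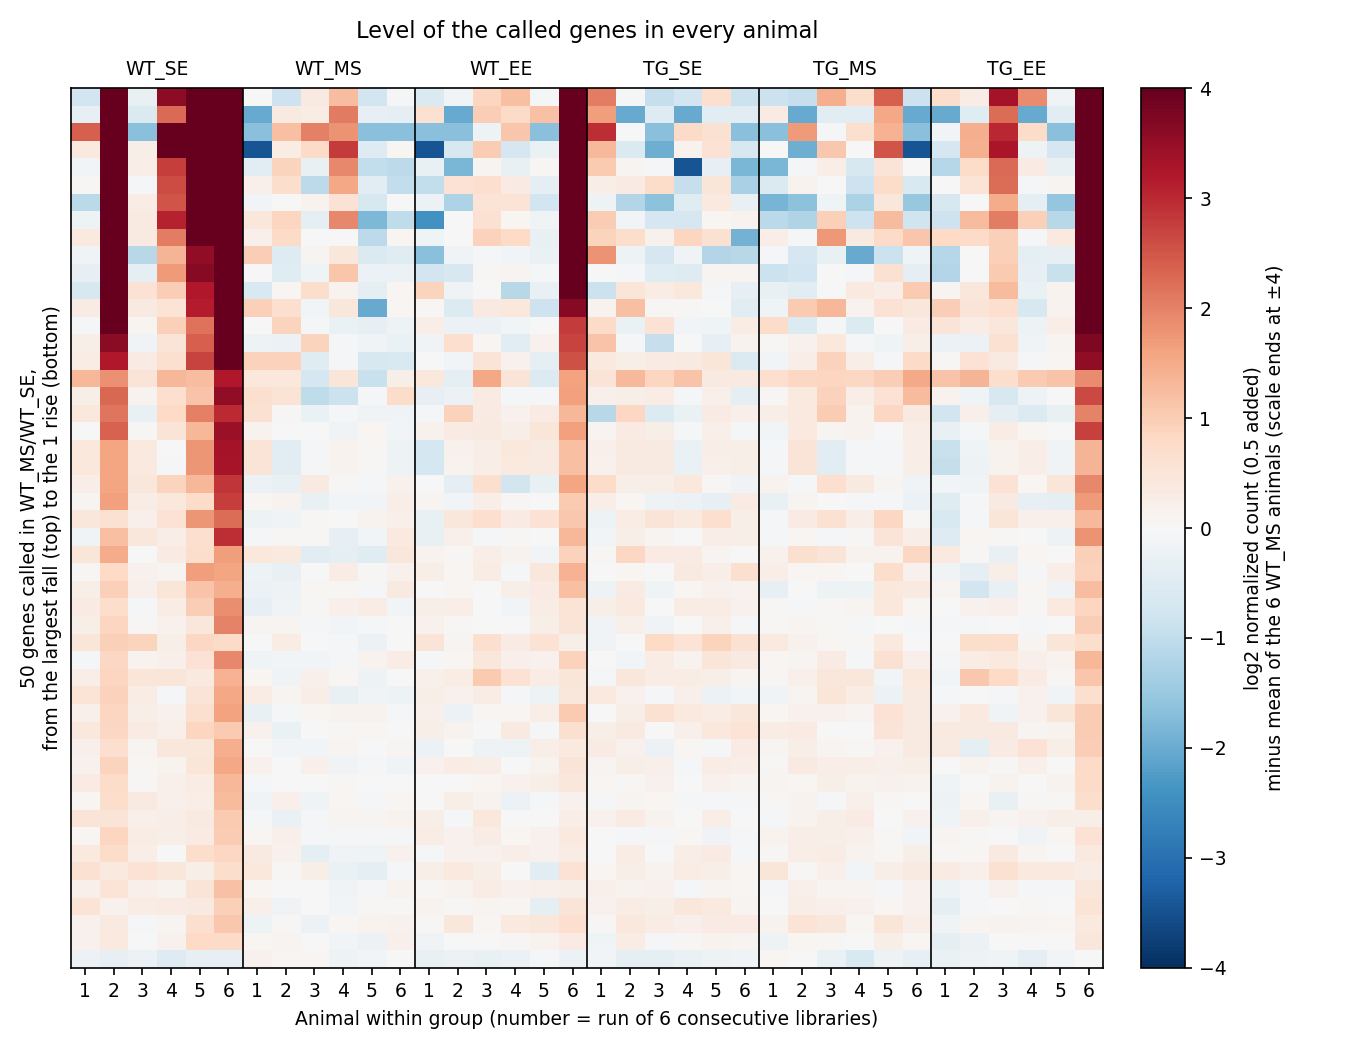
Level of the 50 called genes (rows) in all 36 animals (columns, 6 per group), as log2 normalized count with 0.5 added, minus the mean of the 6 WT_MS animals, with the colour scale ending at 4 in either direction. Most of the 49 lower genes, and all of the 16 with the largest fall, are higher in WT_SE 2, 5 and 6 than in every WT_MS animal, and WT_EE 6 and TG_EE 6 are the highest of their groups in 44 and 47 of the 49.

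The gene with the largest fall was ENSRNOG00000005770. Its normalized counts in WT_SE were 1.12, 628, 1.71, 32.2, 175 and 1680 in animals 1 to 6. In WT_MS they were 2.29, 1.05, 2.97, 5.99, 1.13 and 2.11 in animals 1 to 6. Animals 2, 5 and 6 of WT_SE were far above every WT_MS animal and WT_SE 4 was above them as well, while WT_SE 1 and 3 lay within the WT_MS range, so the groups overlapped. The fitted log2 fold change was -7.10 (SE 1.25, 95% interval -9.65 to -4.54, adjusted p = 0.0239 in edgeR). This interval uses 1 spread for all groups and does not measure the spread within WT_SE. The SD of the log2 level was 4.18 in WT_SE and 0.76 in WT_MS. WT_MS was lower than WT_SE in 4 of the 6 runs. In WT_EE the values ranged from 1.31 to 311 with a median of 3.24, in TG_EE from 1.97 to 787 with a median of 6.72, and in each of these groups the highest value was that of animal 6. The gene entered the test only through the libraries where it was high, with a mean raw count of 5.55 over the 31 libraries other than the 5 that stood apart. The fitted change was -1.06 with 5 surrogate variables, -3.94 without WT_SE 2, 5 and 6 (adjusted p = 0.62 in edgeR) and -1.72 (SE 0.84) without all 5 (adjusted p = 0.661). Of 38 alternative fits, 12 did not call it.

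ENSRNOG00000051196 behaved differently from most of the called genes, and it was chosen for that after its values were seen. Its normalized counts in WT_SE were 307, 421, 404, 256, 391 and 373 in animals 1 to 6. In WT_MS they were 221, 269, 219, 208, 185 and 218. All animals of WT_MS but animal 2 lay below every WT_SE animal, and the groups overlapped only through WT_SE 4 and WT_MS 2, although WT_MS was lower in 6 of the 6 runs. The fitted log2 fold change was -0.69 (SE 0.14, 95% interval -0.98 to -0.40, adjusted p = 0.0273 in edgeR). It was high in most WT_SE animals, not in 2, 5 and 6 alone. Over the 24 libraries outside WT_SE and WT_MS, its log2 level had a Pearson correlation of -0.0191 with that of ENSRNOG00000005770. That was the lowest value among the 48 other genes called lower. It may rest largely on WT_EE 6 and TG_EE 6, where ENSRNOG00000005770 was high. In the transgenic rats the values ranged from 199 to 406 in TG_SE (median 327) and from 223 to 290 in TG_MS (median 239), so these groups overlapped. TG_MS was above TG_SE in run 1 (290 against 199) and run 2 (248 against 223), and below it in the other runs. The fitted change in TG_MS/TG_SE was -0.30 (SE 0.14, unadjusted p = 0.0428, adjusted p = 0.396 in edgeR). This was the only one of the 49 genes (2.04%) at an unadjusted p under 0.05 in TG_MS/TG_SE, where 12.1% of all genes tested were. The fitted change in WT_MS/WT_SE stayed between -0.76 and -0.55 over all 39 alternative fits, of which 15 did not call the gene. Without the 5 libraries that stood apart it was -0.55 (SE 0.18, unadjusted p = 0.00422, adjusted p = 0.661 in edgeR).

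The gene called higher was ENSRNOG00000029810. Its normalized counts were 178, 169, 178, 149, 169 and 170 in WT_SE 1 to 6. They were 240, 221, 224, 184, 196 and 207 in WT_MS 1 to 6. Every WT_MS animal was above every WT_SE animal, as in 0.142% of all genes tested. The rise was seen in 6 of the 6 runs, as in 3.1% of all genes tested. The gene was chosen on these animals, so both are given as description. The fitted log2 fold change was 0.33 (SE 0.077, 95% interval 0.17 to 0.48, adjusted p = 0.0648 in edgeR), which is just above the minimum of 0.3. 24 of the 39 alternative fits did not call it, with fitted changes between 0.30 and 0.36 over all of them. Without the 5 libraries it was 0.32 (SE 0.10, unadjusted p = 0.00409, adjusted p = 0.661 in edgeR). In the transgenic rats the fitted change was 0.04 (SE 0.077), with medians of 179 in TG_SE and 181 in TG_MS.

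ENSRNOG00000017960 had an equally small adjusted p of 0.0648 in edgeR but a fitted change of 0.24 (SE 0.057, 95% interval 0.13 to 0.36), and it was not called for its size. Its normalized counts were 343, 387, 408, 400, 334 and 370 in WT_SE 1 to 6. They were 453, 485, 462, 437, 401 and 416 in WT_MS 1 to 6. WT_MS was above WT_SE in 6 of the 6 runs, as in 3.1% of all genes tested, and the groups overlapped at WT_MS 5 and WT_SE 3. This gene, too, was chosen on these animals. In the transgenic rats the fitted change was 0.11 (SE 0.057, unadjusted p = 0.0625, adjusted p = 0.433 in edgeR). Without the 5 libraries the change in WT_MS/WT_SE was 0.24 (SE 0.074, unadjusted p = 0.00351, adjusted p = 0.661 in edgeR). At the limits of the call, the largest adjusted p among the 50 called genes was 0.0985 and the next above the limit was 0.104 (edgeR), and 3 genes with an adjusted p of at most 0.1 stayed below 0.3, the largest of them at 0.25.

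**Figure D2:**
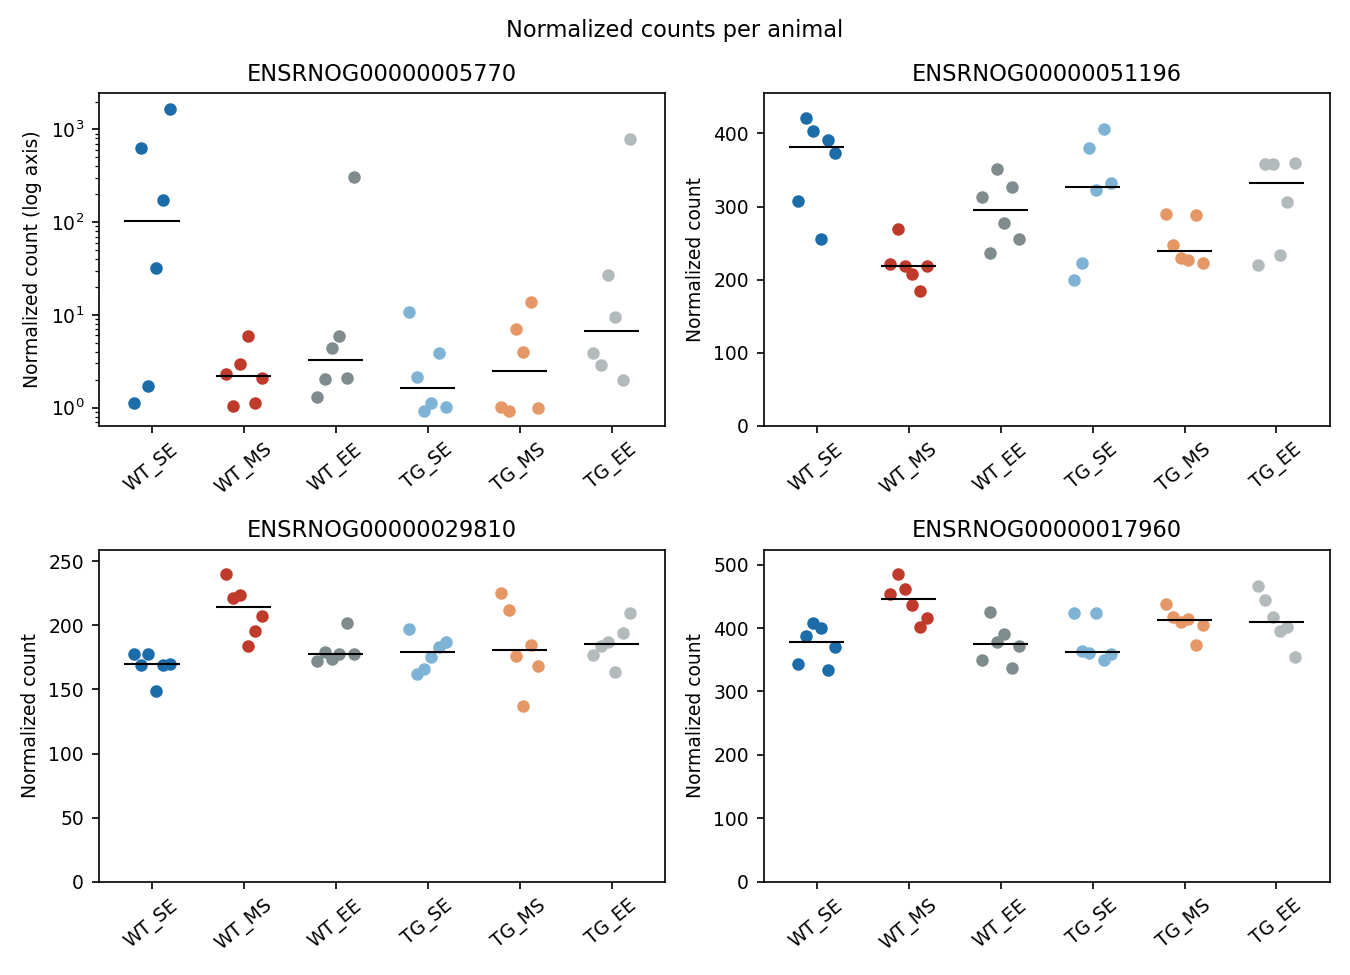
Normalized counts of 4 genes in all 36 animals, 1 point per animal in the order of animals 1 to 6, with a line at the median of each group (the axis of the first gene is logarithmic, the others start at 0). The first gene is high in single animals of WT_SE, WT_EE and TG_EE, whereas in the third gene every WT_MS animal lies above every WT_SE animal.

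Most of the lower genes were high in the same few standard animals. In 40 of the 49 genes WT_SE 2, 5 and 6 were all above WT_SE 1, 3 and 4, as in 5.25% of all genes tested. These 40 included all 16 that fell by 2 or more. They also included 9 of the 10 that fell by 1 to 2 and 15 of the 23 that fell by 0.3 to 1. The count filter was passed only through the 5 libraries that stood apart by 15 of the 16, 1 of the 10 and 0 of the 23. For such genes the filter itself favoured high values in WT_SE 2, 5 and 6, and all 49 were called because WT_SE was above WT_MS. WT_SE 6 was the highest of the 6 WT_SE animals in 46 of the 49 genes, WT_SE 5 in 2 and WT_SE 2 in 1, whereas WT_SE 6 was the highest in 17.8% of all genes tested. In WT_MS the highest animal varied, and animals 1 to 6 held this place in 11, 7, 6, 11, 2 and 12 genes. The median of the 49 genes relative to the WT_MS level, on the log2 scale, was 0.22 in WT_SE 1, 1.47 in WT_SE 2, 0.20 in WT_SE 3, 0.44 in WT_SE 4, 1.003 in WT_SE 5 and 2.78 in WT_SE 6. Over the 16 genes that fell by 2 or more, the same medians were 0.08, 5.88, 0.079, 2.14, 4.51 and 7.36. WT_SE 1 and 3 were thus near the WT_MS level in the genes with the largest change, and WT_SE 4 lay between them and the other 3 animals.

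The spread of these genes was larger in WT_SE than in WT_MS. The SD of the log2 level over the 6 animals had a median of 0.90 in WT_SE and 0.25 in WT_MS for the 49 genes, and it was larger in WT_SE in 48 of them. For the 16 genes with the largest fall the medians were 3.22 and 0.75, for the genes that fell by 1 to 2 they were 1.165 and 0.28, and for the genes that fell by 0.3 to 1 they were 0.45 and 0.16. Over all genes tested the medians were 0.157 and 0.142. Among WT_SE 1, 3 and 4 alone the median SD was 0.23 for the 49 genes and 0.134 over all genes. It was 1.38 for the 16, 0.28 for the genes that fell by 1 to 2 and 0.13 for those that fell by 0.3 to 1. The animals in which most of these genes were high were left out of WT_SE, and no animal was left out of WT_MS. These values therefore cannot show whether the spread of the remaining WT_SE animals equalled that of WT_MS. Animals 2, 5 and 6 of WT_SE were above WT_MS by 1.56 (median over the 49 genes, log2 scale), and animals 1, 3 and 4 by 0.26.

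The summed counts of the 49 genes made up a small part of each library. They took 0.0818 to 0.0876% of all counts in WT_MS. In WT_SE they took 0.0967, 0.315, 0.0925, 0.111, 0.199 and 0.661% in animals 1 to 6. All WT_SE animals were above all WT_MS animals in this sum, from which no test was made because the genes were chosen on these animals. Outside the comparison the share was 0.214% in WT_EE 6 and 0.352% in TG_EE 6, and at most 0.105% in each of the other 22 libraries. The total counts of WT_SE 2, 5 and 6 were 12181718, 10684845 and 13598588, while the deepest library was WT_SE 4 with 19284439. Whether these levels came from more cells of some type or from more RNA per cell cannot be told apart in bulk tissue.

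Within the runs, the difference was uneven. WT_MS was lower than WT_SE in 32, 49, 38, 46, 49 and 49 of the 49 genes in runs 1 to 6. The median difference within a run, on the log2 scale, was -0.13, -1.15, -0.21, -0.44, -1.21 and -2.49, while the median over all genes was between -0.0074 and 0.016. The 16 genes with the largest fall had medians near 0 in runs 1 and 3, at 0.095 and -0.019, and medians of -5.74, -0.98, -5.45 and -7.42 in runs 2, 4, 5 and 6. The genes that fell by 0.3 to 1 were more even, with medians of -0.22, -0.78, -0.22, -0.28, -0.57 and -1.196.

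**Figure D3:**
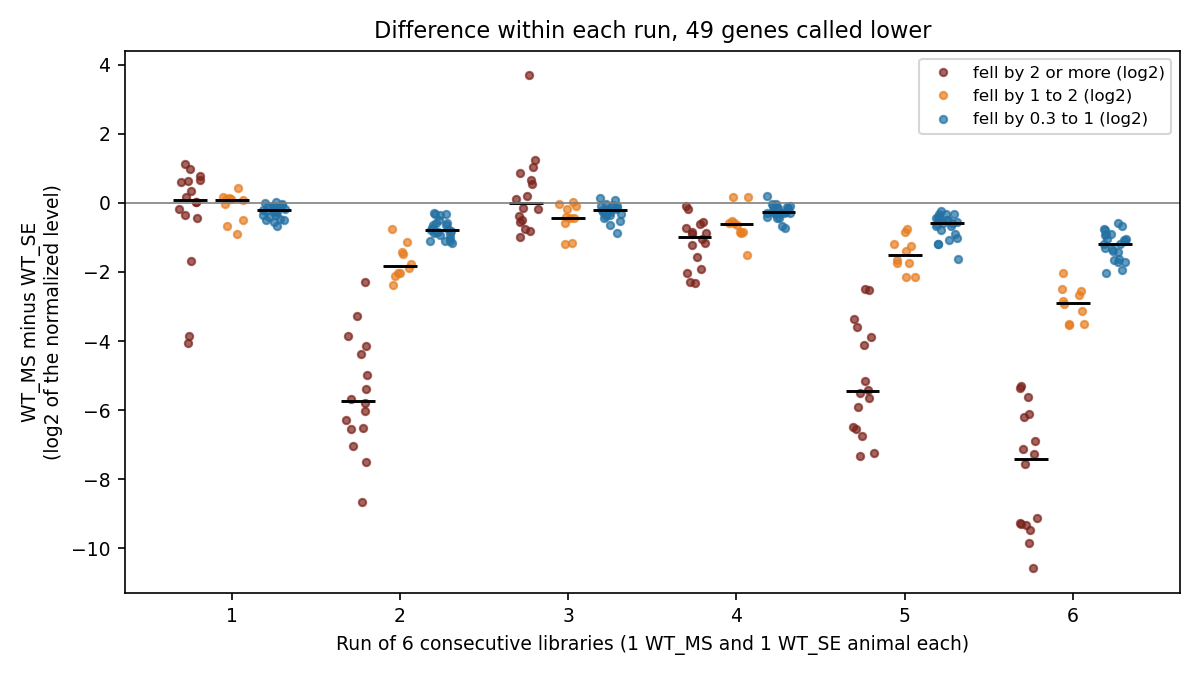
Difference between the WT_MS and the WT_SE animal of each run (y axis, log2 of the normalized level) for the 49 genes called lower, 1 point per gene, coloured by the size of the fitted fall, with black lines at the medians. Runs 2, 5 and 6 hold the large differences, whereas the medians of the genes that fell most are 0.095 and -0.019 in runs 1 and 3.

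Genes that moved the same way in every run were similar in number in both directions. Over all genes tested, 374 (2.95%) were lower and 392 (3.1%) higher in WT_MS in all 6 runs. Of the 49 genes called lower, 26 were lower in all 6 runs, among them 20 of the 23 that fell by 0.3 to 1, 4 of the 10 that fell by 1 to 2, and 2 of the 16 that fell by 2 or more. The groups did not overlap, with every WT_MS animal lower, in 28 genes (0.221%), of which 8 were called. They did not overlap with every WT_MS animal higher in 18 genes (0.142%), of which 1 was called. The fitted changes of these genes were mostly small, with a median of -0.30 (range -1.63 to -0.096) for the 28 and 0.24 (range 0.13 to 0.53) for the 18. In runs 1, 3 and 4 alone, which hold none of the 3 standard libraries that stood apart, 26 of the 49 genes were lower in each, where 14.4% of all genes tested were. Against WT_SE 1, 3 and 4 every WT_MS animal was lower in 10 of the 49, of which 8 were among those that fell by 0.3 to 1, where 0.885% of all genes tested were. The lower calls were read on the contrast that chose them, and these counts are given as description.

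Leaving out single animals changed the number of calls widely. Without WT_SE 6, 5 or 2 the edgeR fit called 3, 15 and 5 genes, and without WT_MS 2, 3, 5 or 6 it called 2, 19, 12 and 0. Without WT_SE 1, 3 or 4 it called 90, 121 and 87, without WT_MS 1 it called 128, and without WT_MS 4 it called 38. Without WT_SE 2, 5 and 6 together edgeR called no gene (smallest adjusted p 0.363), and an unadjusted p under 0.05 was found for 1013 genes, of which 504 were lower and 509 higher. Without all 5 libraries that stood apart, again none was called, and 900 genes had such a p, of which 459 were lower and 441 higher. These fits were added after the data were seen. The median of the 49 genes was then -0.41 and -0.31, respectively, against -1.08 in the fit of all animals, and all 49 still had a value below 0, which their choice on the WT_MS animals favours. A fit of the 12 compared libraries alone called 24 genes (18 lower, 6 higher), 11 of them among the 50, and a fit of the 18 wildtype libraries called 12, of which 11 were among the 50.

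**Figure D4:**
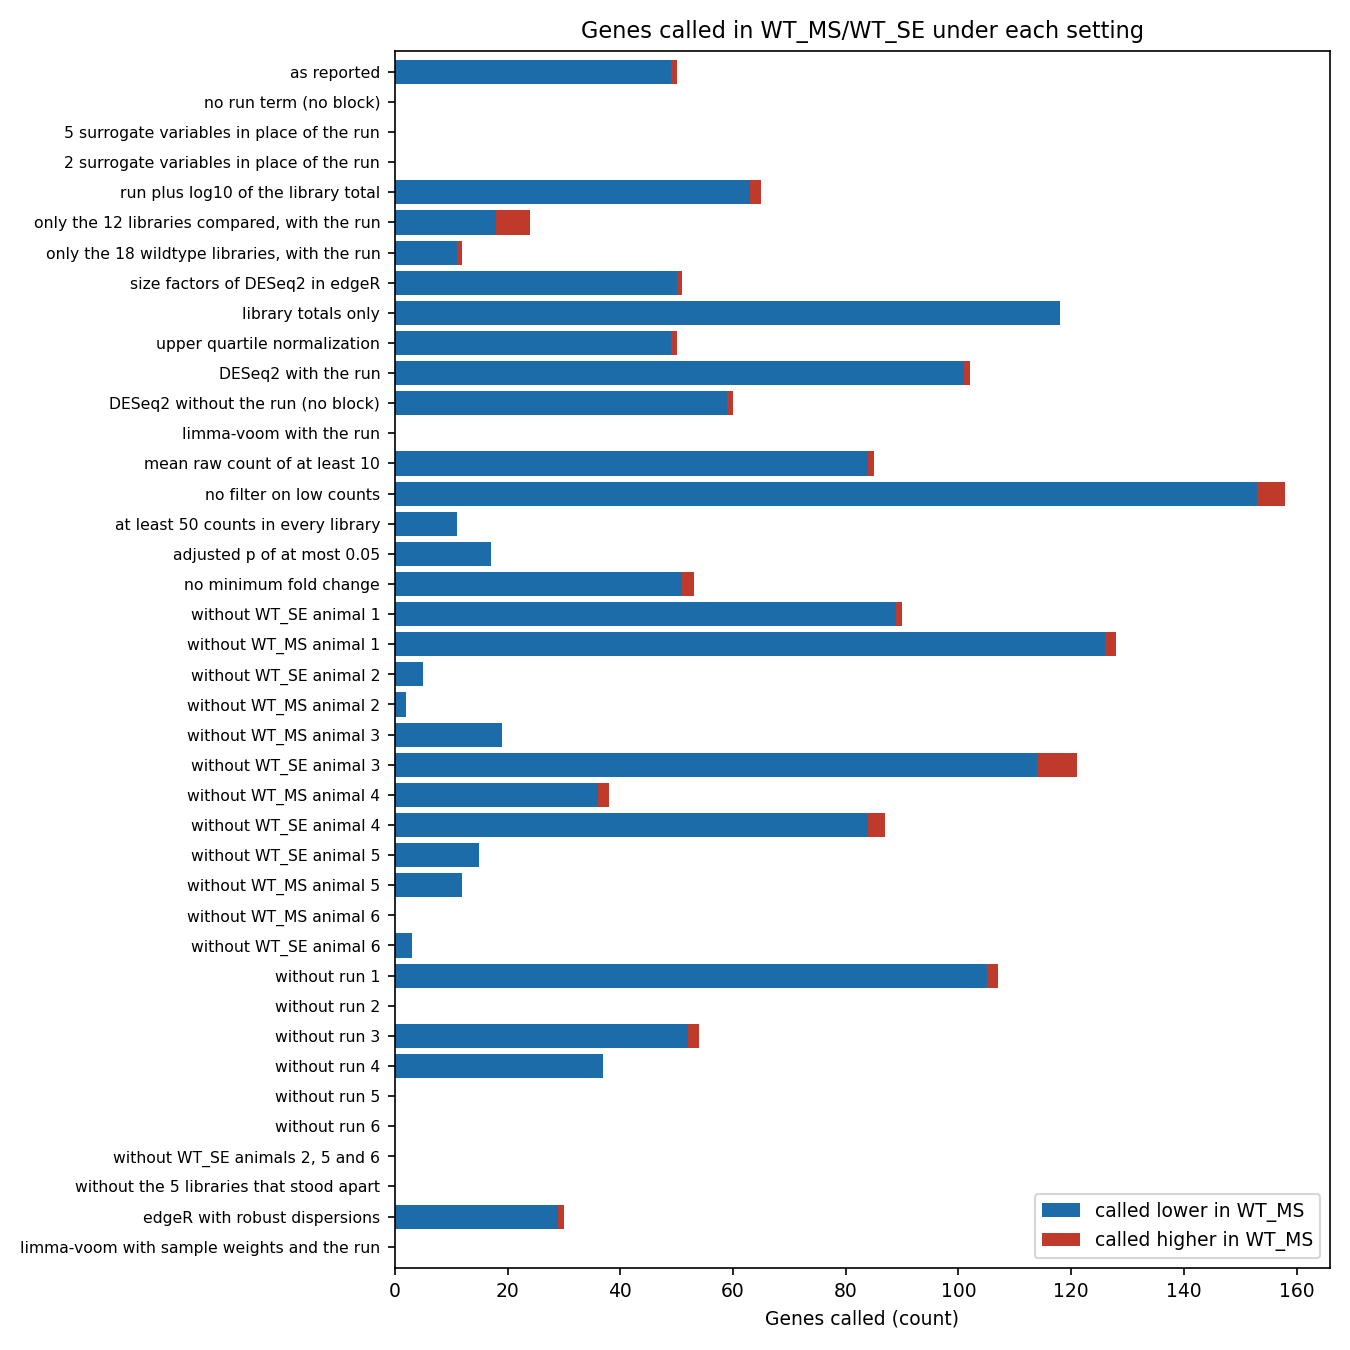
Number of genes called in WT_MS/WT_SE (x axis, count) under each of the 40 settings, with genes called lower in blue and higher in red. The bar is at 50 as reported, at 0 with surrogate variables, with limma-voom, in edgeR without the run, and without WT_SE 2, 5 and 6, and at 158 without a filter on low counts.

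The levels of the 49 genes also moved together in the 24 libraries outside WT_SE and WT_MS, although these libraries took part in the count filter. Of the 16 genes that fell by 2 or more, 15 passed that filter only through the 5 libraries that stood apart. WT_EE 6 and TG_EE 6 are among those 5, so the correlation of such genes was partly set by the filter. Over the 24 libraries outside WT_SE and WT_MS, the median Pearson correlation between pairs of the 49 genes was 0.63, against -0.0025 over all genes tested. It was 0.86 among the 16 genes that fell by 2 or more, 0.72 among those that fell by 1 to 2 and 0.47 among those that fell by 0.3 to 1. Without WT_EE 6 and TG_EE 6 the median was 0.11 over the remaining 22 libraries, and 0.33, 0.12 and 0.078 in the groups of genes. The shared movement in these libraries thus rested largely on WT_EE 6 and TG_EE 6, which were the highest of their groups in 44 and 47 of the 49 genes, against 18.8% and 22.2% of all genes tested. The points of these correlations are libraries of 4 groups and are given as description only.

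The genes whose level followed ENSRNOG00000005770 most closely were not all called. Over the same 24 libraries, 92 other genes (0.727%) had a Pearson correlation above 0.7 with it. Its raw counts there were 336 in WT_EE 6 and 796 in TG_EE 6, and at most 24 in the other 22 libraries. These correlations may therefore rest largely on WT_EE 6 and TG_EE 6, and they were not computed without them. Among the 16 genes that fell by 2 or more, the median correlation between pairs was 0.86 with WT_EE 6 and TG_EE 6 and 0.33 without them. Of the 92 genes, 26 were among the 48 other genes called lower, and 66 were not called in WT_MS/WT_SE. The correlations of the 48 genes with it had a median of 0.71 and a minimum of -0.019, the latter in ENSRNOG00000051196.

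The same comparison in transgenic rats gave no call in edgeR. TG_MS/TG_SE used 12 other animals, which may include littermates of the wildtype animals, and within each run the library numbers of WT_MS and TG_MS, and those of WT_SE and TG_SE, followed each other directly. edgeR called no gene (smallest adjusted p 0.286), and 1536 genes (12.1%), 771 higher and 765 lower, were at an unadjusted p under 0.05. DESeq2 with the run called 6 genes and limma-voom none, with 1502 and 1490 genes at an unadjusted p under 0.05. The 49 genes called lower in wildtype rats had a median of 0.026 in TG_MS/TG_SE with a range of -1.002 to 1.07, and 21 of the 49 (42.9%) were lower, against 60.4% of all genes tested with the same direction in both genotypes. The 95% interval in the transgenic rats held 0 in 48 of the 49 genes. The median half-width of this interval was 0.53 on the log2 scale, so a smaller fall could have been missed in many of them, and a fall of 0.3 lay outside the interval in 16 genes.

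Across the groups, the 49 genes were highest in WT_SE on balance. The group median of the 49 genes above WT_MS, on the log2 scale, was 0.66 in WT_SE, 0.17 in WT_EE, 0.15 in TG_SE, 0.12 in TG_EE and 0.13 in TG_MS. WT_SE thus stood above the other 5 groups, and the values of the other 4 were close to each other and above WT_MS. The 49 genes were chosen on high values in WT_SE as well as on low values in WT_MS. Of the 49, 16 also passed the count filter only through the 5 libraries that stood apart, some of which are in WT_SE. The highest place of WT_SE and the lowest place of WT_MS were therefore favoured by this choice, and they are given as description only. The difference between the wildtype and the transgenic change was tested directly. The interaction gave no called gene, with a smallest adjusted p of 0.6246 in edgeR and 872 genes at an unadjusted p under 0.05. DESeq2 and limma-voom with the run called none either, with 840 and 804 such genes. Of the 49 genes, 45 were among those of edgeR, but the same WT_MS and WT_SE animals chose them. A fit with 18 pairs of consecutive libraries in place of the run also gave no call for the interaction.

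WT_EE/WT_SE shared the 6 WT_SE animals with the comparison, and its values are set side by side for this reason only. All 49 genes had a value below 0 in WT_EE/WT_SE, with a median of -0.82 against -1.08 in WT_MS/WT_SE, and no gene was called in WT_EE/WT_SE by edgeR, with 607 genes at an unadjusted p under 0.05, while DESeq2 with the run called 17 and limma-voom none, with 573 and 535 such genes. For the 16 genes with the largest fall the medians were -2.94 in WT_EE/WT_SE and -4.53 in WT_MS/WT_SE. For ENSRNOG00000051196 the values were -0.28 (SE 0.14) in WT_EE/WT_SE and -0.69 in WT_MS/WT_SE, and for ENSRNOG00000029810 they were 0.099 (SE 0.077) and 0.33.

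With all libraries, the share of genes with the same direction in wildtype and transgenic rats was larger for genes that were higher after maternal separation than for those that were lower. Of the 392 genes higher in all 6 wildtype runs, 306 (78.1%) had a fitted change above 0 in the transgenic rats, and 26 (6.63%) were higher in all 6 transgenic runs, where 453 (3.58%) of all genes tested were. Of the 374 genes lower in all 6 wildtype runs, 237 (63.4%) were below 0 in the transgenic rats, and 21 (5.61%) were lower in all 6 transgenic runs, where 526 (4.16%) of all genes tested were. At an unadjusted p under 0.05 in wildtype rats, 404 of the 568 higher genes (71.1%) and 487 of the 847 lower genes (57.5%) had the same direction in transgenic rats, against 60.4% of all genes tested. Without the 50 called genes these shares were 78% and 64.9% for the genes higher and lower in all 6 runs, and 71.1% and 58.4% for those at an unadjusted p under 0.05. Without the 5 libraries that stood apart, the same direction was found in 367 of 441 higher genes (83.2%) and 364 of 459 lower genes (79.3%) at an unadjusted p under 0.05, against 66.7% of all genes tested, so the gap between higher and lower genes was smaller. Of the 1415 genes at an unadjusted p under 0.05 in wildtype rats, 153 (10.8%) had such a p in transgenic rats (edgeR). Among all genes tested 12.1% did, so the overlap was not above that share. Of the 153 genes, 133 (86.9%) had the same direction. Among the genes without overlap between the wildtype groups, the same direction was seen in 16 of 28 lower and 15 of 18 higher genes. These shares carry no test, because genes are not independent replicates and the neighbouring library numbers of the genotypes were shared within a run.

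The sizes of the changes were weakly correlated between the genotypes across genes, which are not independent replicates. Across all genes tested, the fitted changes had a Pearson correlation of 0.021 and a Spearman correlation of 0.24, and without the 50 called genes these were 0.069 and 0.24. Without the 5 libraries that stood apart they were 0.32 and 0.42. A fitted change of at least 0.3 was found upward in 238 and downward in 113 genes of TG_MS/TG_SE, against 111 and 437 in WT_MS/WT_SE.

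**Figure D5:**
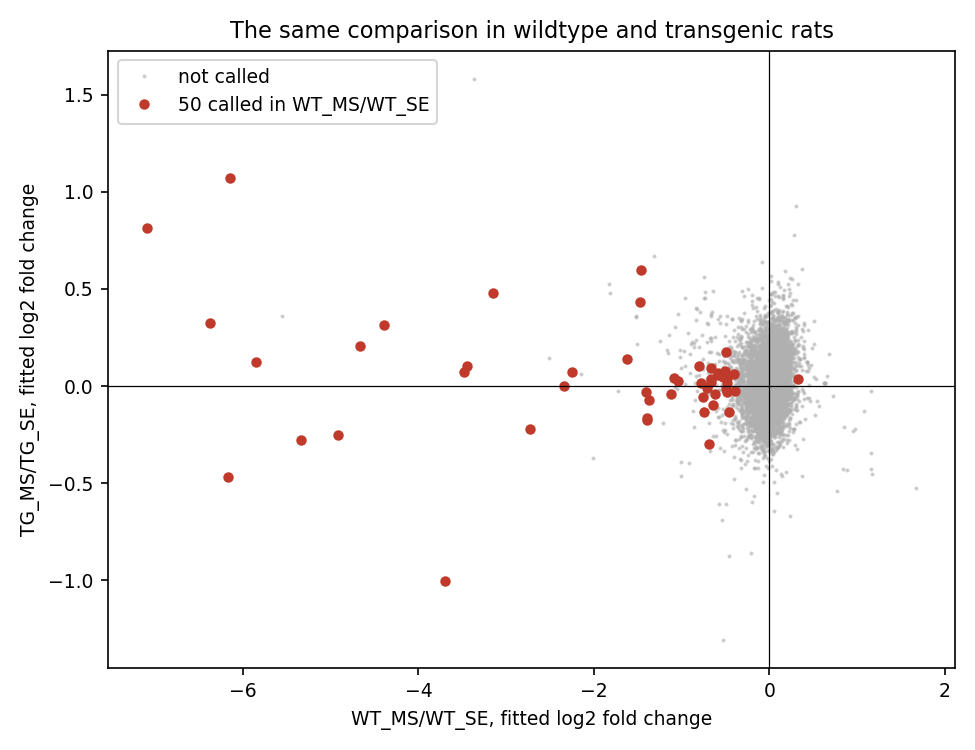
Fitted log2 fold change of every gene tested in WT_MS/WT_SE (x axis) and TG_MS/TG_SE (y axis), with the 50 genes called in wildtype rats in red. The called genes reach -7.10 in wildtype rats and stay between -1.002 and 1.07 in transgenic rats.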

How the data were processed

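The authors checked reads with FastQC 0.11.4, aligned them with STAR 2.5.2b to the rat genome of Ensembl, to which the human transgene was added, and deposited raw counts per gene without normalization. The methods credit the counts to DESeq2 1.16.1, and the program that assigned reads to genes is not given in the sources used here. All values were whole numbers, and no column was left without a sample.

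Of 23965 genes, those with 50 or more raw counts on average over 36 libraries were tested with edgeR 4.0.16 (glmQLFit, R 4.3.3), with TMM normalization, 1 mean per group and a factor for 6 runs of 6 consecutive library numbers. All 36 libraries shared 1 estimate of the spread. P-values were adjusted after Benjamini and Hochberg over 12657 genes. Normalized counts are TMM-scaled to the mean library, and levels for SDs, correlations and runs are log2 values of library-scaled counts (edgeR cpm) with a prior count of 0.5. Standard errors and intervals were derived from the fitted change and the F statistic. They cover counting error and a spread per gene that is shared by all groups, so they do not measure the spread within WT_SE or WT_MS alone. Alternatives used limma 3.58.1, DESeq2 1.42.0 and sva 3.50.0, where the permutation procedure of num.sv gave 5 surrogate variables. The procedure was tested on simulated counts. Whether same-run animals deviate together was checked by correlating the deviations of WT_SE and WT_MS from their group means over genes, which gave 0.107, 0.396, 0.0527, 0.16, 0.187 and 0.107 in runs 1 to 6, against a median of -0.00279 for other pairings. The own run was the best match in 2 of 6. The run was nevertheless kept as block, as the comparison was laid out with it, and fits without it are given.

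The members and lists were chosen with earlier results of these data known. The rule for named genes (those with the largest change, highest count or smallest p, and genes of lists) needs symbols and could not be applied. Instead, at most 2 identifiers that rose and 2 that fell are given. The 2 that rose had the smallest p in WT_MS/WT_SE among genes with a fitted change above 0. The gene and marker lists were not analysed here.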

Additional observations from a re-analysis of the deposited data

Results flagged for a closer look

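Among the 4 genes given by identifier, 2 had an animal far from the rest of its group, judged by the gap to the nearest animal divided by the range of the group, with a critical value of 0.625 for 6 animals. For ENSRNOG00000005770 in WT_SE the ratio was 0.626, from the value of WT_SE 6. For ENSRNOG00000029810 in WT_SE it was 0.67, from the low value of WT_SE 4. Chance gives about 1 such group in 20. Of the 49 genes called lower, 24 passed this limit in WT_SE and 6 in WT_MS, where 6.90% and 4.89% of all genes tested did.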

How the results depend on the processing

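The direction of the 4 named genes held in all alternative fits that tested them, and all calls in the reported fit depended on the setting. The number called was 0 without the run (no replicate block), with 5 or 2 surrogate variables, with limma-voom with or without sample weights, without WT_SE 2, 5 and 6 and without the 5 libraries that stood apart. It was 24 (18 lower, 6 higher) with the 12 compared libraries, 12 (11 lower) with the 18 wildtype libraries, 65 (63 lower, 2 higher) with the log10 library total added, 118 (all lower, 0 higher) with library totals only, 102 (101 lower) with DESeq2 and the run, and 60 (59 lower) with DESeq2 and no replicate block. It was 85 (84 lower) at a mean count of at least 10, 158 (153 lower, 5 higher) without a filter, 11 (all lower, 0 higher) with at least 50 counts in every library, where 24 of the 49 genes were tested, 17 (all lower) at an adjusted p of at most 0.05, 53 (51 lower, 2 higher) without a minimum fold, and 30 (29 lower) with robust dispersions. Leaving out 1 of the 12 animals gave 0 to 128 calls (0 to 126 lower, 0 to 7 higher), and leaving out 1 run gave 0 to 107 (0 to 105 lower, 0 to 2 higher), with 0 without run 2, 5 or 6. The cause was not tested. The interaction had 0 calls except for 1 with DESeq2 without the run. Pairs of consecutive libraries could not be fitted for WT_MS/WT_SE, since all 18 pairs hold 1 environment each, and list medians were not run for want of symbols. What depth alone limits was not tested. The 95% interval, which covers counting error and a spread shared by all groups, reached a median of 0.166 to either side on the log2 scale.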
